A study of Mus musculus with 4 samples.

Results

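The mouse Irf8 locus was described here by the open chromatin and the footprints of 2 dendritic cell types, as the stretch of mm9 chromosome 8 from 123.20 to 123.42 Mb. All intervals of the peak lists and all footprints that overlapped this stretch were taken as members. They were 32 of 83701 intervals in cDC1 and 28 of 51941 in pDC, with 170 of 513689 footprints in cDC1 and 139 of 312959 in pDC. The gene starts near 123.26 Mb on the plus strand, a rounded position from which all distances in kb are counted, so that the stretch reaches 60 kb upstream and 160 kb downstream.

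Omni-ATAC-seq, in which the transposase Tn5 cuts and tags accessible DNA, was performed on cells grown from mouse bone marrow in culture, with 2 samples per cell type. Both cell types went through the same 2 steps, amplification in a cytokine cocktail and differentiation with Flt3 ligand. Classical dendritic cells of type 1 (cDC1), which cross-present antigen, were sorted as CD11c+ CD11b+ XCR1+, and plasmacytoid dendritic cells (pDC), which secrete type I interferon, as CD11c+ CD11b- B220+. Whether samples of a cell type came from separate cultures or animals is not stated, nor are strain and age. The authors merged the replicates, so each cell type has 1 list and no replicate error, and no test was possible between cell types. The labelled cell types were not checked against marker genes, since an mm9 annotation was not used here.

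Irf8 encodes a transcription factor of the interferon regulatory factor family. It is needed for the development of cDC1, and pDC express it at high levels. Its expression is known to be set by enhancers on both sides of the gene. The element at +32 kb is bound by BATF3 with IRF8 itself and keeps Irf8 active in cDC1, the element at +41 kb is bound by E proteins such as TCF4 and is known from pDC and early progenitors, and the element at +56 kb is known from myeloid progenitors. PU.1, the ETS factor of myeloid cells, binds at -50 kb.

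The promoter is shown because all regions below are set against the start region. RefSeq lists 2 starts of Irf8 that lie 2281 bp apart, and the 250 bases before the first, at chr8:120736108-120736357 of GRCm38.p6 on the plus strand, read as follows. Capitals mark the matches to the STAT letters TTCNNNGAA.
Irf8 promoter: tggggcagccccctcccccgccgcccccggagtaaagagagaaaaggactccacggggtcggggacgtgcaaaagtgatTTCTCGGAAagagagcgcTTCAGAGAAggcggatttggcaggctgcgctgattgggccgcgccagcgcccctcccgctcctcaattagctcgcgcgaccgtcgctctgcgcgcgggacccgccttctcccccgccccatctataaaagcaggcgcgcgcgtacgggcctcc
Both matches, TTCTCGGAA at positions -171 to -163 and TTCAGAGAA at -153 to -145 before the start, lay close together, and the first also holds an ETS core, GGAA. STAT letters were found in 8.30% of the 32851 promoters in the RefSeq table, each 300 bases long on either strand, and the ETS core in 96.0%. In the 300 bases around the first start of Irf8, the IRF motif, GAAA, any 2 bases and GAAA again (in 3.44% of promoters), the AP-1 letters TGANTCA (7.81%) and the E-box CANNTG (72.3%) were not found. The 300 bases held 38 CpG pairs, more than 95.0% of promoters, with a median of 7.0. These are matches of letters, not sites of binding. Sequences of the enhancers were not read, because the lists are in mm9 and a genome of that build was not used here.

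The locus was densely covered with open chromatin in both cell types. Intervals took 7.52% of its bases in cDC1 and 6.03% in pDC. Adjacent stretches of the same length along all chromosomes held a median of 2.00 cDC1 intervals, and 234 of 12001 (1.95%) held 32 or more. For pDC the median was 1.00, and 42 of 11989 stretches (0.350%) held 28 or more. Next to the stretch, the nearest intervals upstream lay 7021 bp (cDC1, 357 tags over the summit) and 7497 bp (pDC, 128 tags) outside it. Downstream, the nearest lay 53065 bp (cDC1, 46 tags) and 158254 bp (pDC, 43 tags) away. In the RefSeq table of GRCm38.p6, Irf8 spans 20337 bp between the coding genes Cox4i1 and Foxf1. Exons and introns were not assigned to the regions.

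Joined over both lists, the intervals formed 40 regions. Open in both cell types were 19, against 43.5% of the 93615 regions of the genome. Open in cDC1 only were 13 (genome 45.5%) and in pDC only 8 (genome 11.0%). Of the shared regions, 5 lay upstream, 1 at the start and 13 downstream. The regions of 1 cell type were spread likewise, 4 upstream and 9 downstream in cDC1 and 3 upstream and 5 downstream in pDC. In shares of each list, 59.4% of the 32 cDC1 intervals overlapped a pDC interval (95% Wilson interval 42.3 to 74.5, genome 49.1%) and 71.4% of the 28 pDC intervals overlapped a cDC1 interval (52.9 to 84.7, genome 80.3%). When the cDC1 list was cut to the length of the pDC list, keeping its largest −log10 q, the balance turned: 16 regions were open in both (genome 49.2%), 2 in cDC1 only (genome 26.0%) and 11 in pDC only (genome 24.8%). With a −log10 q limit of 10, they were 14 (genome 36.3%), 9 (genome 55.3%) and 4 (genome 8.34%). A shared region whose cDC1 interval is cut counts as pDC only, and a cut by −log10 q is not one by tags. The cDC1-only regions at +1.4, +6.6 and +12.4 kb had more tags over the summit than 52.1%, 55.6% and 57.0% of cDC1 intervals. Their −log10 q was larger than that of 0.668%, 17.1% and 5.89%. Both Wilson intervals include the share of the whole list, and like all intervals here they cover counting error only. Reads were PCR products without molecular identifiers, and the paper's methods state that duplicates were removed.

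The height of a region is given as summit tags, the number of tags piled over its highest summit. This number is not printed in the lists and was recovered from the deposited fold enrichment and −log10 p of each summit, which together fix it and the background tags. In the cDC1 list 94219 of 94222 summits, and in the pDC list 59941 of 59941, gave a whole number that returned the listed −log10 p within 0.002, with all 37 and 30 summits of the locus among them. Genome-wide, cDC1 had 3.14 times the summit tags of pDC at the median of 40721 shared regions, so ratios between cell types were divided by this number and read relative to it. A scaled ratio of 1 thus means the ratio of the median shared region.

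**Figure D1:**
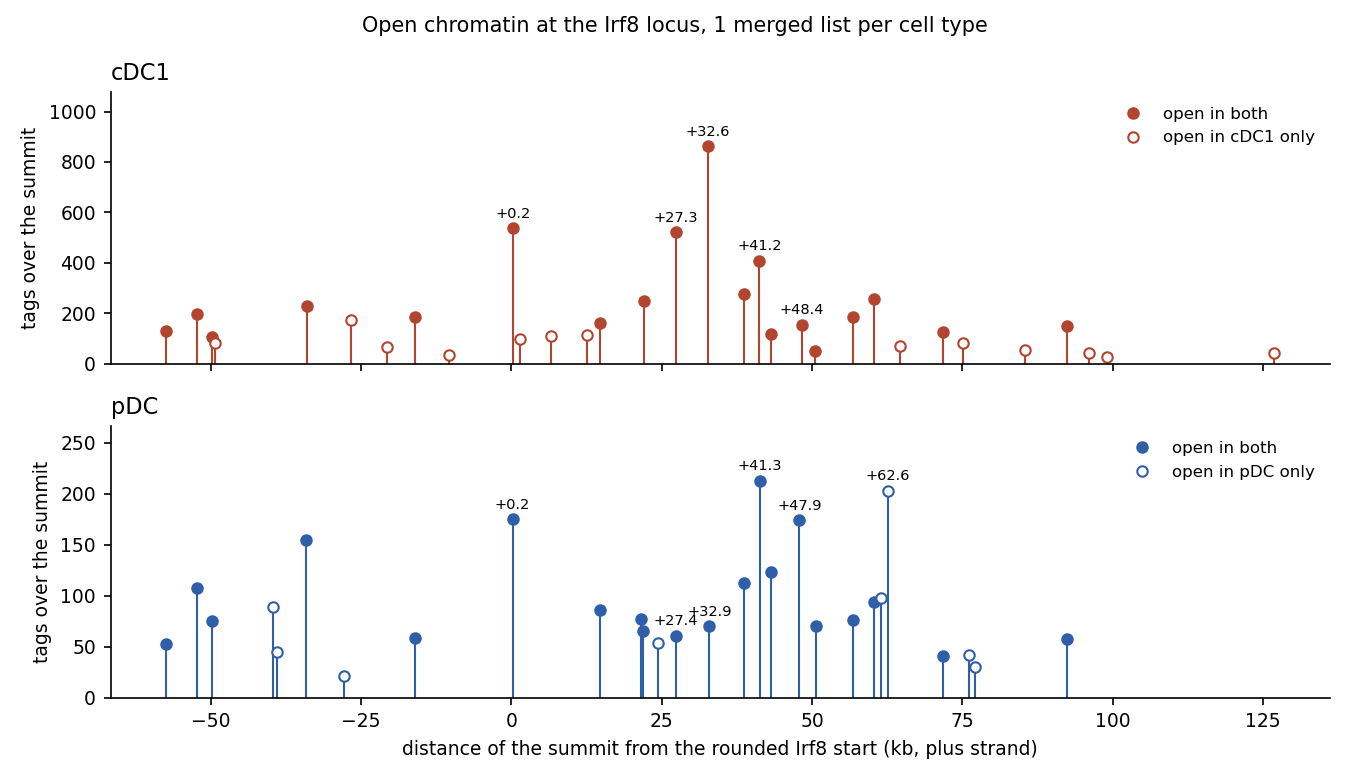
Tags over the highest summit of each interval (vertical axes, linear, each from 0 and on its own scale) against distance from the rounded Irf8 start in kb, for cDC1 (top, red) and pDC (bottom, blue). Filled points are regions open in both cell types and open points regions of 1 cell type. In cDC1 the highest point is the +32 kb element with 862 tags, and in pDC the +41 kb element with 213 and the pDC-only region at +62.6 kb with 203.

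The start region (chr8:123259669-123260688) had a ratio close to that of the median shared region. It held 536 summit tags in cDC1 and 175 in pDC, a scaled ratio of 0.975 (exact 95% interval 0.820 to 1.16). Its 7 cDC1 footprints had 467 to 1231 tags and its 6 pDC footprints 314 to 396. These footprint values were read as tag counts as well, and over 91319 pairs of footprints that overlapped by at least 50% of both, the cDC1 count was 3.28 times the pDC count at the median. For the pair with most tags at the start, 1231 in cDC1 and 389 in pDC, the ratio scaled by that median was 0.966 (0.861 to 1.09), and with all reads as scaling its log2 was 0.86. Here and below, summit tags and footprint tags of a region come from the same merged libraries and are not independent measures. A second, weak interval at +1.4 kb was listed in cDC1 only, with 98 summit tags and a −log10 q of 1.837.

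The +32 kb element (chr8:123292292-123293118) had the highest summit of the locus in cDC1, 862 tags against 70 in pDC. The scaled ratio was 3.92 (3.07 to 5.07) higher in cDC1, above that of 98.8% of shared regions. Its −log10 q of 723.4 was larger than that of 99.8% of cDC1 intervals, while the pDC value of 24.07 was larger than that of 65.2% of pDC intervals. The summits of both lists lay 293 bp apart, a distance reached by 3.48% of shared regions of the genome, against a median of 27.0 bp over the shared regions of the locus. Larger distances in the locus were 496 bp at +21.7 kb and 453 bp at +48.1 kb. Footprints differed in place as well. The cDC1 footprints, centred at 32634, 32650 and 32678 bp from the start, held 1736, 1741 and 1611 tags, and the pDC footprints, centred at 32696 and 32954 bp, held 86 and 136. No pair overlapped by 50% of both. The intervals themselves overlap (chr8:123292292-123293030 in cDC1 and chr8:123292512-123293118 in pDC), and the ratio is between summits at different positions within them. With the genome-wide background as scaling, the log2 ratio of the summits rose from 1.97 to 2.82.

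At +27.3 kb (chr8:123287076-123287582), a region that no place of a known enhancer covered and that was picked out after its values were seen, the same side was higher. Summit tags were 521 in cDC1 and 61 in pDC, a scaled ratio of 2.72 (2.08 to 3.60) with the summits 64 bp apart. Its cDC1 footprints had 897 and 1033 tags, and its 4 pDC footprints 83 to 122. The pair with most tags, 1033 and 102, gave a scaled ratio of 3.09 (2.52 to 3.83), or a log2 of 2.54 in place of 1.63 with all reads as scaling. In cDC1 this region was as high as the start region, at 0.972 of its summit tags, and in pDC it reached 0.349.

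The +41 kb element (chr8:123300997-123301632) was the highest region of the locus in pDC, with 213 summit tags, and had 408 in cDC1. Scaled, it was 1.64 times higher in pDC (1.38 to 1.94). The pair with most tags, 877 in cDC1 and 454 in pDC, gave 1.70 (1.51 to 1.90) on the same side. The difference stayed below 2-fold, and its direction changed when the lists were scaled by all reads, to a log2 ratio of 0.15 for the pair. Footprints of cDC1 numbered 9, with 998 tags at the highest, and those of pDC 4, with 100, 454, 174 and 71 tags. In pDC, the element stood above the start region at 1.22 of its summit tags, and in cDC1 below it at 0.761.

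Within 3 kb of the +41 kb place, 2 further shared regions were listed. At +38.5 kb, with 276 summit tags in cDC1 and 113 in pDC, the pDC level was 1.29 times higher (1.02 to 1.61), and 8 cDC1 and 9 pDC footprints held 352 to 803 and 216 to 315 tags. The pair with most tags (749 and 282) gave 1.23 (1.07 to 1.42), and its log2 ratio turned to 0.61 with all reads as scaling. At +43.2 kb the unscaled summit tags of pDC, 123, exceeded the 117 of cDC1 although the cDC1 list is the deeper one, which scaled to 3.30 times higher in pDC (2.54 to 4.29). The log2 ratio of −1.72 became −0.88, below 2-fold, with the genome-wide background as scaling, and that of the pair went from −1.87 to −0.96 with all reads. Its 3 cDC1 footprints had 219 to 228 tags and its 5 pDC footprints 196 to 275.

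Shared regions at +48.1 and +50.6 kb, outside the places of the known enhancers and picked out after their values were seen, were also higher in pDC. At +48.1 kb (chr8:123307537-123308595), cDC1 had 154 summit tags and pDC 174, or 3.55 times more after scaling (2.84 to 4.44). The highest summits lay 453 bp apart, because cDC1 had a second summit. At the position that both lists share, +47.91 kb, the tags were 130 and 174 and the pDC level 4.21 times higher. The only pair of footprints there, 255 tags in cDC1 against 331 in pDC, gave 4.25 (3.60 to 5.03). With the highest footprint of each list, 360 and 377 tags, the log2 ratio was −1.76 in place of −2.09. At +50.6 kb the tags were 48 in cDC1 and 70 in pDC. After scaling, pDC was 4.58 times higher (3.13 to 6.76) by summits. By the footprint pair of 118 and 88 tags, it was 2.44 times higher (1.83 to 3.25). Scaled by the genome-wide background, the summit log2 ratio at +48.1 kb went from −1.83 to −0.98, below 2-fold, and at +50.6 kb from −2.20 to −1.35. Scaled by all reads, those of the pairs went from −2.09 to −1.18 and from −1.29 to −0.38, the latter below 2-fold. In pDC the region at +48.1 kb reached 0.994 of the start region and in cDC1 0.287.

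**Figure D2:**
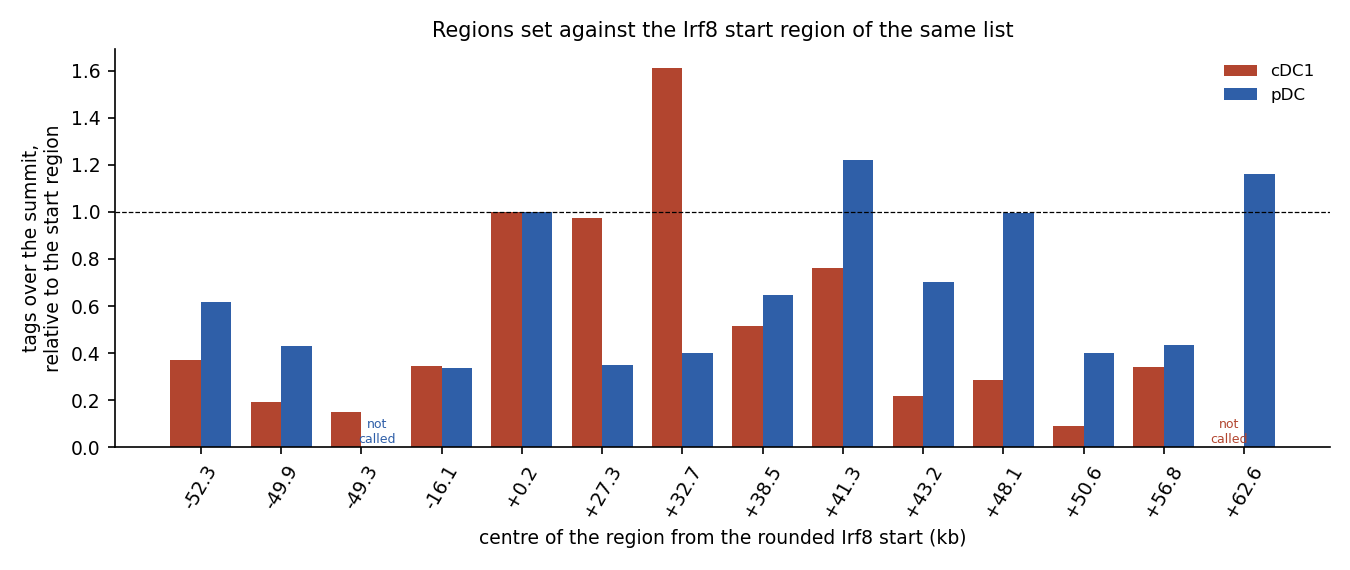
Summit tags of named regions divided by those of the start region of the same list (vertical axis, linear from 0), for cDC1 (red) and pDC (blue), which needs no scaling between libraries. The dashed line is the start region, and regions without an interval in 1 list are marked. Only the +32 kb element stands above the line in cDC1 among these regions, at 1.61, and in pDC the +41 kb element at 1.22 and the region at +62.6 kb at 1.16 do.

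At the element at +56 kb (region centre +56.8 kb), summit tags were 184 in cDC1 and 76 in pDC, a scaled ratio of 0.770 (0.587 to 1.02), and the footprint pair of 466 and 125 tags gave 1.14 (0.932 to 1.40). Both intervals include 1, and the values lie on opposite sides of it. With all reads as scaling, the pair had a log2 ratio of 1.09, past 2-fold on the cDC1 side. Footprints numbered 8 in cDC1 (304 to 474 tags) and 2 in pDC (116 and 125).

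Upstream, 3 regions lay within 3 kb of the -50 kb place, and those shared were higher in pDC. At -52.3 kb the summit tags were 198 in cDC1 and 108 in pDC, 1.71 times higher in pDC (1.34 to 2.18), with 5 footprints in each list at 440 to 483 and 208 to 248 tags. With all reads as scaling, the log2 ratio of its footprint pair turned to 0.16. At -49.9 kb they were 104 and 75, 2.27 times higher in pDC (1.66 to 3.08), with 2 cDC1 and 3 pDC footprints of which none paired. With the genome-wide background as scaling its log2 ratio went from −1.18 to −0.33, and its listed fold enrichment was 3.67 in cDC1 and 3.46 in pDC. An interval at -49.3 kb, with 80 summit tags, 5 footprints of 180 to 202 tags and a −log10 q of 14.66, was listed in cDC1 only.

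The -16 kb element (region centre -16.1 kb) had a ratio near that of the start region. Its summit tags were 186 in cDC1 and 59 in pDC, a ratio of 1.00 (0.745 to 1.37), and the pair of 463 and 128 footprint tags gave 1.10 (0.906 to 1.35), or a log2 of 1.05 with all reads as scaling. Relative to the start region it reached 0.347 in cDC1 and 0.337 in pDC.

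Most footprints of any shared region were listed at -34.0 kb, 14 in cDC1 with up to 460 tags and 15 in pDC with up to 379. Its summit tags, 227 and 155, were 2.15 times higher in pDC after scaling (1.74 to 2.64). Over its 5 footprint pairs the log2 ratio ran from −1.56 to −0.93, all on the pDC side under this scaling. As neighbours in 1 region of the same lists, these pairs are not independent of each other. With all reads as scaling the pair with most tags had a log2 ratio of −0.35, below 2-fold, and with the listed fold enrichment in place of tags it was 0.05.

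**Figure D3:**
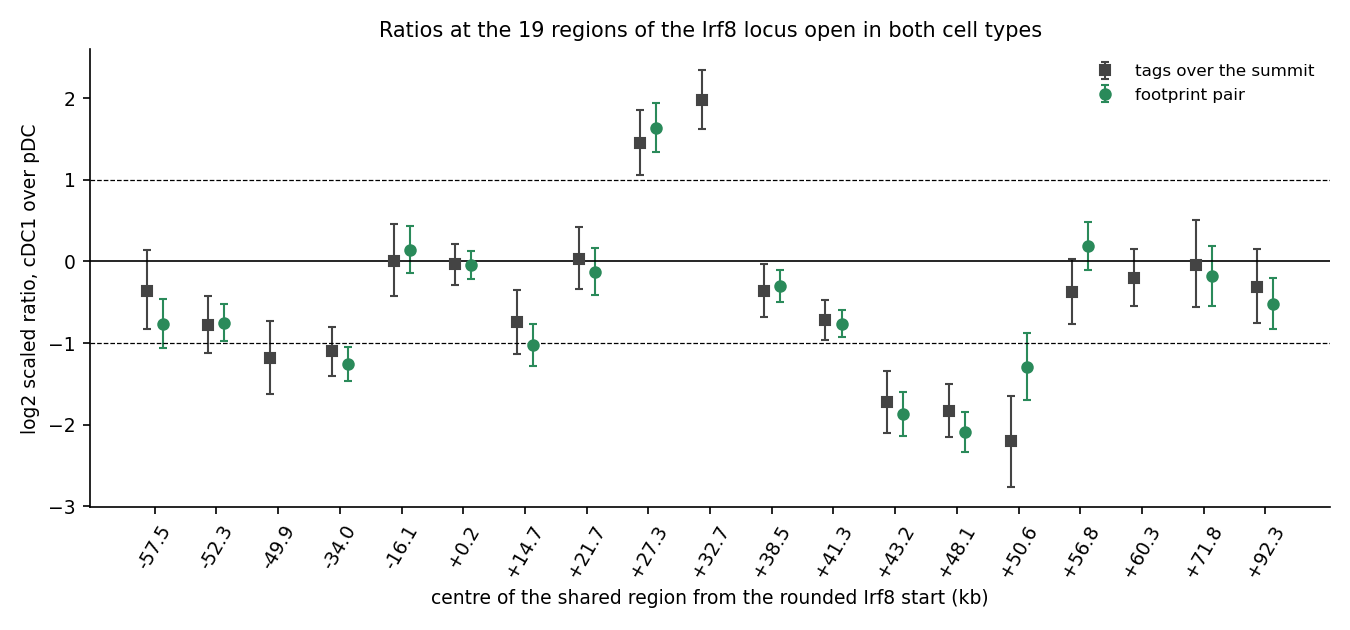
Log2 scaled ratio of cDC1 over pDC (vertical axis) for the 19 regions open in both cell types, ordered by distance from the rounded Irf8 start in kb, by summit tags (grey squares) and by the footprint pair with most tags (green circles, 16 regions). Bars are exact 95% intervals for counting error only, and dashed lines mark 2-fold. The regions at +27.3 and +32.7 kb lie above the upper line. Those at -34.0, +43.2, +48.1 and +50.6 kb lie below the lower line by both measures, that at -49.9 kb by summit tags, its only value, and that at +14.7 kb by its footprint pair alone.

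Past the 2-fold limit by footprint pairs, 1 of 16 regions was higher in cDC1 (genome 8.93%) and 5 of 16 in pDC (genome 12.6%). By summit tags 2 of 19 were higher in cDC1 (genome 9.44%) and 5 of 19 in pDC (genome 13.8%). Median log2 ratios were −0.64 and −0.36. Scaling moved these counts. With all reads of the libraries in place of the median pair, the scaling factor fell from 3.28 to 1.75, the counts became 3 in cDC1 and 1 in pDC, and the median log2 ratio became 0.27. A lower factor moves the ratios of all regions of the genome toward cDC1 by the same amount. The median pair of the genome then no longer has a scaled ratio of 1. Genome shares past 2-fold were not counted under this scaling. Over the settings tried for summit tags, 7 regions kept 1 direction and 12 did not. Those at +27.3 and +32.7 kb stayed on the cDC1 side, and those at -49.9, -34.0, +43.2, +48.1 and +50.6 kb on the pDC side. The regions at -34.0 and +32.7 kb had no value with summits at most 100 bp apart. Fold enrichment was tried as a setting of the footprint pairs only, and by it the region at -34.0 kb turned to a log2 of 0.05. By footprint pairs, 5 of 16 kept 1 direction, at +27.3 kb for cDC1 and at +14.7, +43.2, +48.1 and +50.6 kb for pDC. Of these, only the region at +43.2 kb had a value with pairs at 80%. At +14.7 kb the log2 ratio of the pair was −0.12 with all reads as scaling. That of its summits turned to 0.1 with the genome-wide background.

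Among the regions of 1 cell type, a few were strong. In cDC1 the highest was at -26.7 kb (chr8:123233036-123233534), with 174 summit tags, a −log10 q of 123.8 and 4 footprints of 269 to 380 tags. By −log10 q, it was followed by those at +75.1 kb, with a value of 19.04 and 83 summit tags, and -20.7 kb, with 17.31 and 67. By summit tags, the next were at +12.4, +6.6 and +1.4 kb, with 112, 108 and 98. In the 13 regions the −log10 q ran from 1.708 to 123.8, with a median of 7.980. Regions of pDC only were led by that at +62.6 kb (chr8:123322258-123322889), with 203 summit tags, more than the 175 of the start region. Its −log10 q of 88.26 was larger than that of 92.9% of pDC intervals, and its 4 footprints held 388, 416, 420 and 342 tags. Next by −log10 q came -39.5 kb, with 89 summit tags, a −log10 q of 32.74 and 7 footprints of 177 to 236 tags, and +61.5 kb, with 98 summit tags and a −log10 q of 15.57. In the 8 regions the −log10 q ran from 1.918 to 88.26, with a median of 4.400. A region of 1 list is one that was not called in the other. Its level there is not given, and the lists differ in depth and in reads within peaks. All reads were 1.75 times as many in cDC1 as in pDC, and reads in peaks 3.72 times as many.

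Footprints were shared at about the rate of the whole lists in cDC1 and below it in pDC. Of the 170 cDC1 footprints, 28.8% had a pDC footprint over at least 50% of their bases (95% Wilson interval 22.5 to 36.0, genome 26.9%), and of the 139 pDC footprints 31.7% (24.5 to 39.8, genome 40.7%). Within the shared regions the shares were 42.6% of 115 in cDC1 (genome 45.1%) and 43.1% of 102 in pDC (genome 48.4%). Neighbouring footprints of a region are not independent. Of the 31 pairs, 7 had the same bounds in both lists (genome 21.0%), and 5 of them lay at -57.5 kb. Pairs were found in 16 of the 19 shared regions (genome 78.4%), and the 3 without were those at -49.9, +32.7 and +60.3 kb. Median tag counts were 260.5 in cDC1 (whole list 212.0) and 140.0 in pDC (whole list 100), at median widths of 16 and 19 bp.

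**Figure D4:**
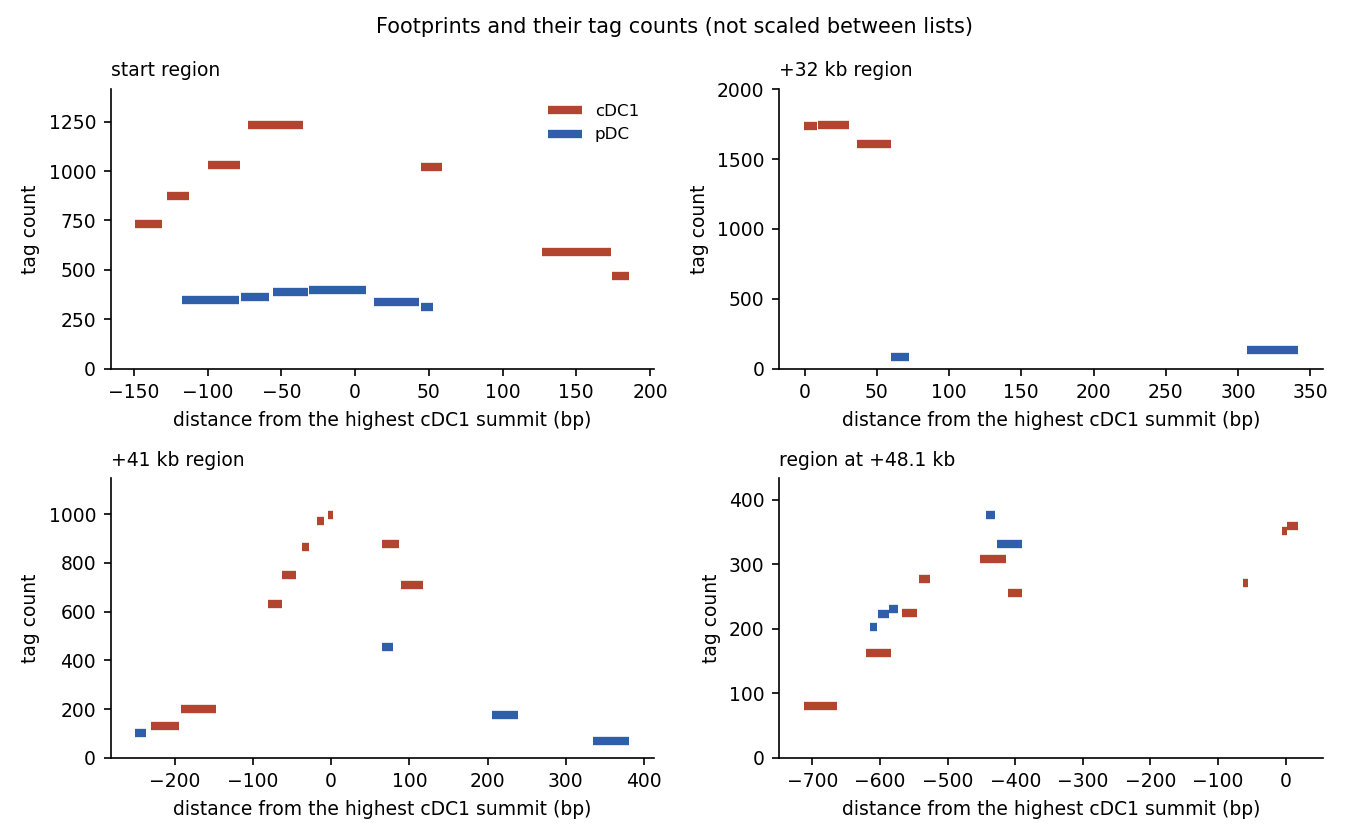
Footprints (horizontal bars, to scale in bp from the highest cDC1 summit) and their tag counts (vertical axes, linear from 0, not scaled between lists) in the start, +32 kb, +41 kb and +48.1 kb regions, for cDC1 (red) and pDC (blue). At +32 kb the cDC1 bars at 1611 to 1741 tags and the pDC bars at 86 and 136 do not overlap, and at +48.1 kb the pDC bars at 377 and 331 tags stand above the cDC1 bars at 308 and 255 over the same bases.

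The wider neighbourhood of the summits was also rich in tags. Where the listed background lay above its genome-wide floor, it was a whole number of tags over 10 kb (0.02 for each tag of 200 bp) in 69589 of 69593 summits of cDC1 and 49299 of 49299 of pDC, so tags per 10 kb could be read. The floor was 600.5 tags per 10 kb in cDC1 and 343.9 in pDC. At the start region the 10 kb held 3183 and 1598 tags, 5.30 and 4.65 times the floor. The highest values were 3741 tags in cDC1, at +21.7 kb, and 1954 in pDC, at +14.7 kb. Medians over the intervals of the locus were 2.26 times the floor in cDC1 and 3.30 in pDC, against 1.42 and 1.47 over the whole lists. At the +32 kb element the 10 kb held 2415 tags in cDC1 and 694 in pDC. Scaled by the median of 2.30 over 30801 shared regions, that ratio was 1.51 (1.39 to 1.65), the highest of the 19 shared regions, and lower than the 3.92 of its summit. None of the 19 was 2-fold higher in cDC1 on this measure (genome 1.47%) and 3 were in pDC (genome 2.88%), at -34.0, +48.1 and +60.3 kb. Unscaled, these held 1023, 1161 and 1887 tags in cDC1 and 1048, 1215 and 1782 in pDC. The 10 kb include the region itself and can include its neighbours, so values of nearby regions are not independent. That around +60.3 kb takes in the pDC-only regions at +61.5 and +62.6 kb. By summit tags, the scaled ratio at +60.3 kb was 0.870 (0.684 to 1.11). The counts past 2-fold in 10 kb rest on the factor of 2.30. They were not repeated with the factor of 1.75 from the genome-wide backgrounds, which moves all ratios toward cDC1. A fold enrichment is lowered by such a background: the +14.7 kb region, with 161 summit tags in cDC1, was listed at 2.18-fold, and the -26.7 kb region, with 174, at 12.1-fold.

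**Figure D5:**
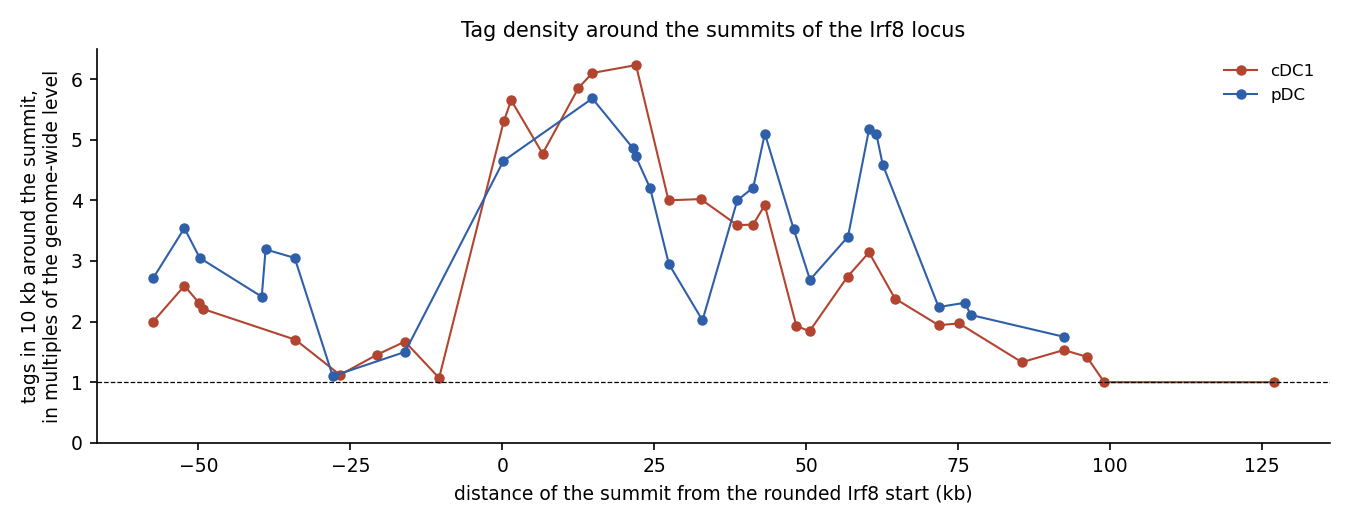
Tags in the 10 kb around each summit divided by the genome-wide floor of the list (vertical axis, linear from 0) against distance from the rounded Irf8 start in kb, for cDC1 (red) and pDC (blue). Lines join neighbouring summits to guide the eye, and the dashed line is the floor, at or below which 2 cDC1 regions lay. Values of cDC1 are highest between the start and +22 kb. The highest pDC point is at +14.7 kb, at 5.68 times the floor, followed by those at +60.3 and +43.2 kb, at 5.18 and 5.10.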

How the data were processed

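Per the paper's methods and the submitters' notes, reads were trimmed (Trim Galore), mapped to mm9 (Bowtie2) and filtered (samtools) by the authors. The methods also name the removal of duplicates. Peaks came from MACS2 and footprints inside them from HINT-ATAC, with replicates merged. For tool versions, the sources used here give none. List positions run past the ends of GRCm38 on 8 of 21 chromosomes, chromosome 8 among them, and were taken as mm9. In the deposited peak lists, the score is a rounded multiple of the −log10 q, the ratio is a fold over background at the summit, −log10 p and −log10 q are those of MACS2, and summit positions are listed too. The value the authors deposited per footprint was read as an unscaled tag count. No source used here states over which window it was counted. The methods name a MACS2 setting without local background, while the listed values hold a background that varies along the genome. The methods also state a q-value filter of 10, while 9 cDC1 and 10 pDC intervals of the locus have a −log10 q below 10. All listed intervals were kept, and a limit of 10 was an alternative.

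Lines with the same bounds were joined into intervals. Summit tags k and background b were solved from fold = (k + 1)/(b + 1) and the Poisson tail. Intervals were shared at 1 bp, footprints at 50% of their bases, and pairs at 50% of both. The intervals of single ratios are exact conditional ones at 95%. Tags may not be independent, so these may be too narrow. Named were regions within 3 kb of the start and of the places at -50, -16, +32, +41 and +56 kb, the 3 strongest by −log10 q in each cell type only, and the 3 shared ones with most footprints. Others named were picked after their values were seen, as was the use of summit tags and of tags per 10 kb. The window, members and lists were chosen with earlier results of these data known. Steps were tested on simulated data. Python 3.11.15, numpy 2.4.6, scipy 1.17.1, pandas 2.3.3 and matplotlib 3.10.9 were used. Total reads and reads in peaks of the libraries, from the study's list of libraries, served only as alternative scalings. Gene expression was not analysed here.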

Additional observations from a re-analysis of the deposited data

How the results depend on the processing

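No paired analysis was possible because replicates were merged into 1 list per cell type, and for the same reason no replicate could be left out. Under a −log10 q limit of 10, 4 regions were open in pDC only. At a limit of 50, 4 were open in both, 10 in cDC1 only and 1 in pDC only, and 28.6% of cDC1 intervals were shared. With lists of equal length, 2 regions were open in cDC1 only and 11 in pDC only, and the shared intervals were 88.9% in cDC1 and 60.7% in pDC. Within 60 kb of the start, 7 were open in cDC1 only and 4 in pDC only. For the limit of 50 and the 60 kb window, no genome share was counted. Shared footprints came to 36.5% in cDC1 and 43.9% in pDC at 1 bp, to 21.8% and 20.9% at 80%, to 37.8% of cDC1 footprints with lists of equal length, and to 42.6% and 43.1% inside shared regions. Of these footprint settings, only that inside shared regions had a genome share counted. Regions 2-fold higher by footprint pairs were 3 in cDC1 and 1 in pDC when scaled by all reads, with a median log2 ratio of 0.27. That factor moves all regions of the genome alike, and no genome share was counted under it. The counts were 0 and 2 of 7 with pairs at 80%, 2 in cDC1 with the highest tag count of each list, 2 and 2 by fold enrichment, and 2 in cDC1 by summit tags. Of these settings, a genome share was counted only for summit tags scaled by their median. By summit tags, an addition made after the data were seen, 1 was higher in pDC with the background as scaling. With summits at most 100 bp apart, 1 was higher in cDC1, and this setting leaves out the +32 kb element and the region at -34.0 kb. Neither of these alternative summit settings had a genome share counted. The region at -34.0 kb turned to 0.05 by fold enrichment, the ratio that local background lowers. With 1 merged library per cell type, the errors given are counting errors only.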

Other observations

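Beyond +60 kb, 13 of the 40 regions of the Irf8 locus were listed. Shared regions there, at +60.3, +71.8 and +92.3 kb, had scaled ratios of 0.870 (0.684 to 1.11), 0.970 (0.677 to 1.42) and 0.806 (0.591 to 1.11) by summit tags, and each interval includes 1. The region at +60.3 kb had 257 summit tags in cDC1 and 94 in pDC, and the pDC-only regions at +61.5 and +62.6 kb came next to it. In the 10 kb around the +60.3 kb summit, pDC held 1782 tags, more than at its start region (1598), and cDC1 1887, fewer than at its own (3183).

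Several intervals held more than 1 summit, 5 in cDC1 and 2 in pDC. At +21.7 kb, 1 cDC1 interval of 1278 bp spanned 2 pDC intervals, and the cDC1 summits of 237 and 248 tags each had a pDC summit within 100 bp. Scaled ratios of these matched summits were 0.979, 1.13 and 1.20.

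The second RefSeq start of Irf8 held no match to the STAT letters and 2 E-boxes in its 300 bases.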
